A study of Homo sapiens with 12 samples.

Results

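Replicate 3 of this HCT116 series holds 4 RNA-seq libraries, 1 from each treatment group, and it was compared with the 8 libraries numbered replicate 1 or replicate 2, out of 12 libraries in all. The libraries were chosen by the replicate number in their labels alone, and the treatment groups were adjusted for. HCT116 is an established human colon cancer cell line. Each of 4 groups has 3 libraries: untreated cells (Control), cells given TGF-β, cells given NH4Cl, and cells given NH4Cl plus TGF-β. The paper's methods give NH4Cl, a source of ammonia, at 10 mM for 24 h, and TGF-β at 200 pM for 1 h after 23 h with NH4Cl or vehicle. The series was made to compare these treatments in colon cancer cells, and it states no question about replicate numbers. Neither labels nor paper say what a replicate number stands for, so culture, RNA preparation, library preparation and sequencing cannot be told apart.

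Expression was read as FPKM, which scales fragments to exon length and a library total, for 25733 genes. The 12341 genes with a mean of at least 1 FPKM over the 12 libraries were tested. Reads assigned to genes numbered 14931020 to 17620222 per library in replicate 3 and 14807630 to 18191998 in the other 8 libraries, so depth overlapped. Below, a difference is that in log2(FPKM + 1), replicate 3 minus replicates 1 and 2, taken within treatment groups and averaged over them. Where 4 replicate 3 values of a gene are listed, their order is Control, TGF-β alone, NH4Cl alone, then NH4Cl plus TGF-β. Values of the other 8 libraries are given as lowest and highest, in most cases with the median. A gene is called higher or lower where the limma p-value, adjusted over all genes tested, is under 0.05.

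Cells that sense low oxygen stabilise the transcription factor HIF, which switches on glucose uptake, glycolysis, angiogenic signals and the very enzymes that destroy HIF. Genes for copying DNA form another coordinated group, switched on by E2F factors as cells enter S phase. Mitochondrial DNA is transcribed as long precursors from its own promoters, so its messenger, transfer and ribosomal RNAs are made apart from the nuclear genes for the same respiratory complexes. These groups, with glycolysis beside hypoxia, are described first.

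The labelled cell type was checked against its markers. All 8 colon epithelial markers looked at were present in replicate 3: EPCAM, an epithelial adhesion molecule, read 229 to 274 FPKM there and 237 to 278 FPKM in the other libraries. CDX2, an intestinal transcription factor, read 13.5 to 15.1 FPKM in replicate 3 and 12.5 to 14.3 FPKM elsewhere. Ranges of both genes, and of VIL1, overlapped between replicate 3 and the rest. The other 5 markers, CDH1, KRT8, KRT18, KRT19 and CDH17, lay above all other libraries in replicate 3, as with the keratin KRT8 at 925 to 1102 FPKM against 754 to 808 FPKM.

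Most genes that were tested differed between replicate 3 and the others. The calls took in 7308 of 12341 genes (59.2%), with 3584 higher (29.0%) and 3724 lower (30.2%). Differences were mostly small: 106 called genes (0.859%) reached a log2 difference of at least 1 in size. Of these, 98 (0.794%) were higher and 8 (0.0648%) lower. With 0.1 added to FPKM in place of 1, 235 called genes reached that size. All 4 replicate 3 libraries lay above all 8 others for 1956 genes (15.8%) and below all 8 for 1904 genes (15.4%). The median difference over all genes was -0.01, and its size had a median of 0.16, against 0.04 between replicates 2 and 1. Replicate 3 was farther from the average of the other 2 replicates than they were from each other in 10368 genes (84.0%). The replicate 3 term held 49.0% of the sum of squares over all genes, treatment 25.6% and the difference between replicates 1 and 2 3.68%. Of all genes tested, 7843 (63.6%) shifted with the same sign in all 4 groups, and the correlation of the shift across genes between groups was 0.702 to 0.774 over 12341 genes, which are not independent replicates. The 4 libraries share a replicate number and are not said to be separate cultures, so 1 number stands against 2, and the p-values measure the spread between these libraries. Genes with near-identical copies (metallothioneins, HSPA1A and HSPA1B, HLA genes, ribosomal proteins, ferritins, several keratins) and genes that overlap on opposite strands have uncertain values, since nothing states whether strand was used in counting.

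**Figure D1:**
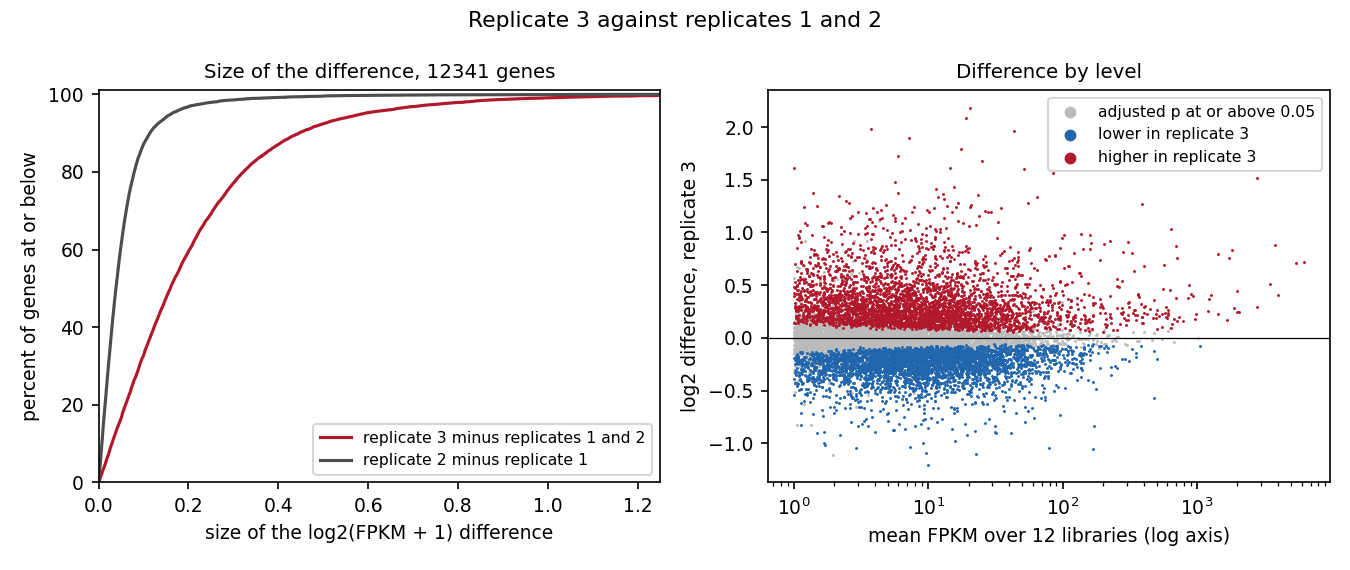
Left: percent of the 12341 tested genes (y axis) whose log2(FPKM + 1) difference is at or below a given size (x axis), for replicate 3 minus replicates 1 and 2 in red and replicate 2 minus replicate 1 in grey. Right: the replicate 3 difference of each gene against its mean FPKM over 12 libraries (log axis), with called genes in red (higher) or blue (lower). The red curve runs to the right of the grey, with medians of 0.16 and 0.04, and far more points lie above 1 than below -1.

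How the libraries are put on a common scale matters for the balance of rises and falls. The library total implied by the deposited FPKM was 0.964 to 0.969 of the reads assigned to genes in replicate 3. In the other libraries it was 1.02 to 1.03, so the deposited scale does not rest on assigned reads alone. Scaling every library to the same FPKM sum (TPM) moved the median difference of all genes from -0.01 to -0.15 and the share of calls that were higher from 49.0% to 21.9%. Scaling to the same sum over genes outside mitochondrial DNA put that share at 34.4%. Directions of small groups given below are therefore read beside the median of all genes, and a group whose median changes sign or comes close to 0 is named as such where it appears. Counts of calls in a group are likewise read beside the 29.0% higher and 30.2% lower among all genes. The lists and their members were chosen with earlier results of these data known, so none is a blind choice.

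Hypoxia response genes were higher as a group in replicate 3. All 24 tested members of 27 listed were called higher, against 29.0% of all genes, and none lower. For all 24, every replicate 3 library lay above the other 8, and 13 differed by at least 1. Their median difference was 1.06, beside -0.01 for all genes, and it was positive under every scaling tried. The summed level of the listed genes was 580.0 to 697 FPKM (median 611) in replicate 3 and 217 to 294 FPKM (median 261) in the others, a ratio of 2.43 between means. BHLHE40, a transcriptional repressor that HIF induces, was the most abundant of the list.

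NDRG1 (ENSG00000104419), a hypoxia- and stress-induced gene, had the largest rise of all genes tested. It read 42.1, 40.8, 44.9 and 45.1 FPKM in replicate 3 and 6.72 to 10.6 FPKM (median 9.54) in the other 8 libraries. The ranges were far apart in every treatment group, and the difference was 2.18 (SE 0.102, limma adjusted p 6.00e-08), higher in 4 of 4 groups. DDIT4 (ENSG00000168209), an inhibitor of mTORC1 signalling that both hypoxia and ATF4 induce, read 36.9, 39.5, 37.5 and 44.8 FPKM in replicate 3 and 5.57 to 12.1 FPKM (median 9.02) elsewhere. Again no library of replicate 3 overlapped the others, with a difference of 2.09 (SE 0.125, limma adjusted p 2.52e-07). CA9 (ENSG00000107159), a carbonic anhydrase of the cell surface that helps cells export acid, read 86.0, 84.0, 83.9 and 93.8 FPKM against 14.2 to 27.4 FPKM (median 22.3). Its 4 replicate 3 values stood well clear of the other 8, and the difference was 1.96 (SE 0.102, limma adjusted p 9.16e-08). EGLN3 (ENSG00000129521), a prolyl hydroxylase that marks HIF for destruction and is itself a HIF target, read 14.1, 14.0, 15.2 and 16.7 FPKM against 2.51 to 3.84 FPKM (median 3.56). This gene too was apart, by 1.90 (SE 0.0945, limma adjusted p 7.20e-08).

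MIR210HG and NDUFA4L2, which have a known link to hypoxia but are not in the list, were among the 15 largest rises. MIR210HG, the host transcript of the hypoxia-induced microRNA miR-210, read at least 10.8 and at most 13.5 FPKM in replicate 3 and 2.33 to 3.35 FPKM (median 3.00) in the others, a difference of 1.72 (SE 0.0788, limma adjusted p 5.12e-08). NDUFA4L2, a HIF target of the mitochondrial inner membrane, read 12.8, 12.3, 7.94 and 9.76 FPKM against 2.63 to 3.85 FPKM (median 3.02), a difference of 1.48 (SE 0.0904, limma adjusted p 2.91e-07). Neither gene's ranges overlapped. In the list, STC2, a secreted glycoprotein, rose by 1.09. MXI1, a HIF-induced antagonist of MYC, rose by 0.86.

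Promoter sequence is shown for members with large rises, because these genes moved together. Windows came from RefSeq (GRCh38.p14, 250 bases before to 50 after the start). Those on the chromosome that carries NDRG1 were passed over for display, so NDRG1 is not shown whether or not a window exists. Capitals mark the core letters of the hypoxia response element, ACGTG, searched on both strands, so that a match on the other strand is printed as CACGT.
DDIT4, chr10:72273674-72273973, plus strand: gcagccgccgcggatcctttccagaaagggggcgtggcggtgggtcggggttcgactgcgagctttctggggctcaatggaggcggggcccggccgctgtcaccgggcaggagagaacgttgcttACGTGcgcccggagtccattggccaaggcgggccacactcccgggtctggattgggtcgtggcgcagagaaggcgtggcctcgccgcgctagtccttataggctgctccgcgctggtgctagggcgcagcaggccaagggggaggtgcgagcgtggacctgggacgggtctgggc
CA9, chr9:35673678-35673977, plus strand: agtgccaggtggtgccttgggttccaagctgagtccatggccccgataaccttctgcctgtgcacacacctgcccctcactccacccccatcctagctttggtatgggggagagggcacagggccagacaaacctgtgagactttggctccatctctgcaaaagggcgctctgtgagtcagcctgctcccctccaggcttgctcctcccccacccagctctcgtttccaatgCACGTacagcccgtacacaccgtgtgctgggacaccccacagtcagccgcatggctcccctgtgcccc
EGLN3, chr14:33951025-33951324, minus strand: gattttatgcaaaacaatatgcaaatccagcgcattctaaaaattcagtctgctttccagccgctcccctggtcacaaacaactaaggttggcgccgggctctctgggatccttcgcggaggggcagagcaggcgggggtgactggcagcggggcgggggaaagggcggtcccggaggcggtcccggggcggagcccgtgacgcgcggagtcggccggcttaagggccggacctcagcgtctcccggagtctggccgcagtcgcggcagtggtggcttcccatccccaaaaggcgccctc
The DDIT4 and CA9 windows each hold 1 match and the EGLN3 window holds 0. The letters were found in 10 of the 19 windows that matched a tested hypoxia gene (52.6%), and in 2392 of 8805 windows of all tested genes (27.2%). Among all genes called higher with a difference of at least 1, they were in 19 of 53 windows (35.8%). A match is a description of letters, and its part in the difference was not tested.

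**Figure D2:**
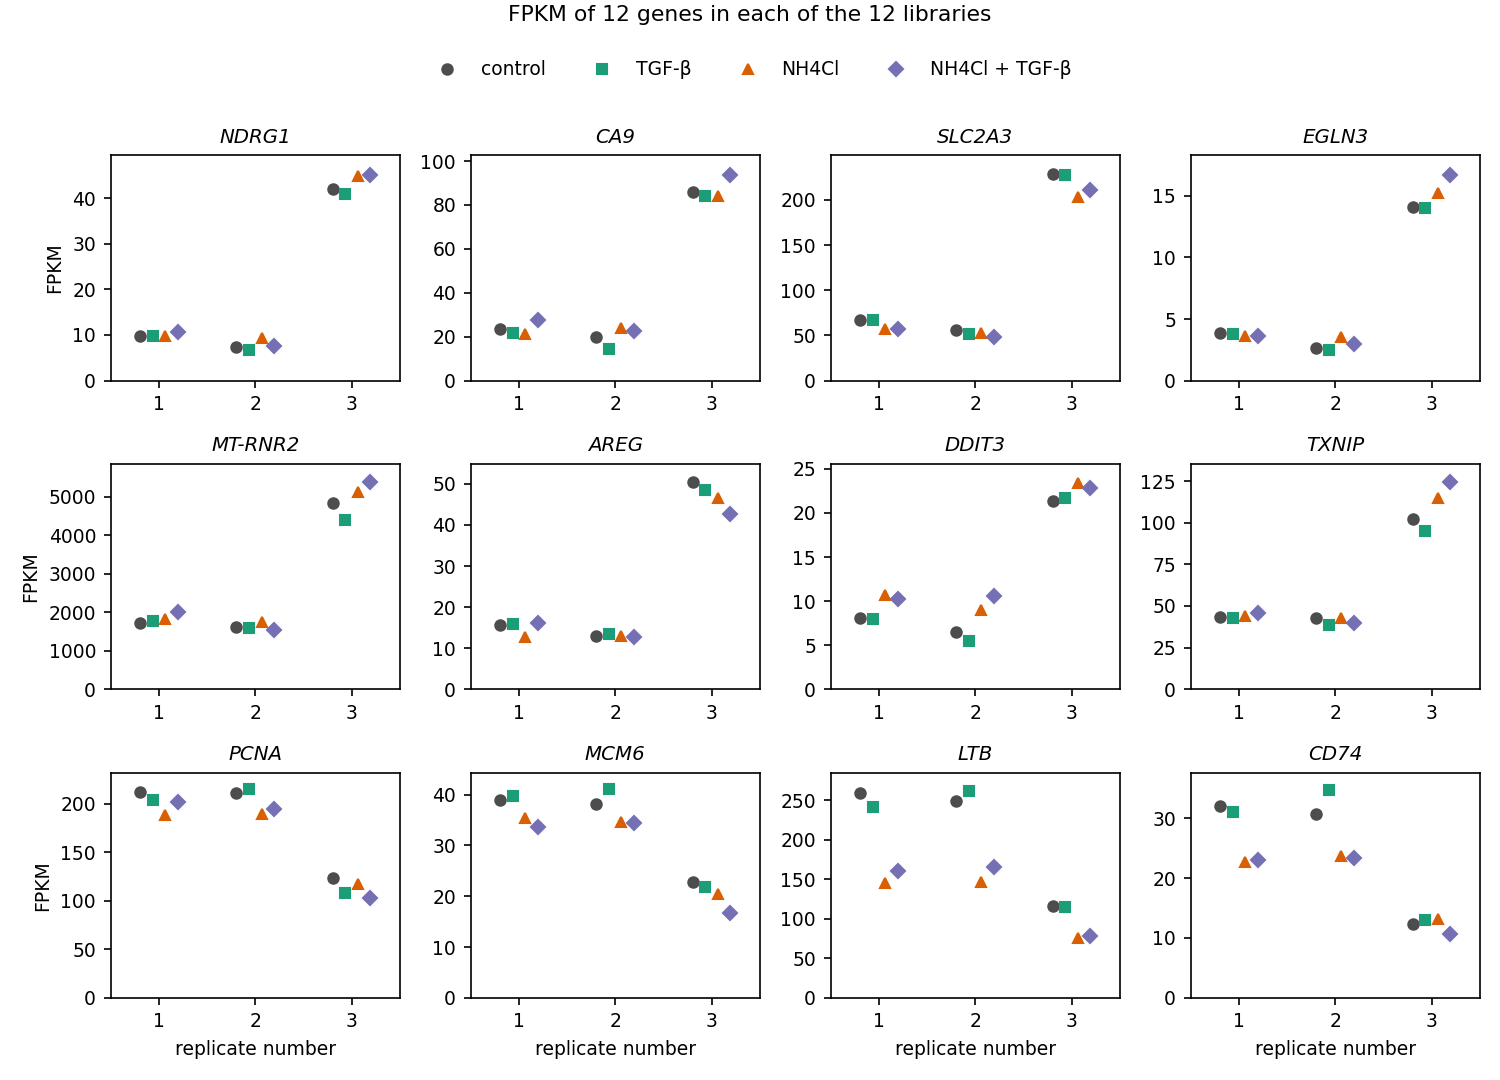
FPKM (y axis, from 0) of 12 genes in each of the 12 libraries, by replicate number (x axis), with a symbol and colour for each treatment group. Values of replicate 3 lie above the others for NDRG1, CA9, SLC2A3, EGLN3, MT-RNR2, AREG, DDIT3 and TXNIP and below them for PCNA, MCM6, LTB and CD74, in every treatment group.

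Glycolysis genes rose alongside. Of 21 tested, 18 were called higher and 2 lower, with a median of 0.65 that was positive under every scaling tried. Their summed level was 5822 to 6395 FPKM (median 6133) in replicate 3 and 3901 to 4334 FPKM (median 4074) elsewhere, with GAPDH the most abundant. SLC2A3 (ENSG00000059804), a glucose transporter with high affinity, read 228, 227, 203 and 211 FPKM against 48.3 to 67.6 FPKM (median 56.4). The groups did not overlap, and the difference was 1.92 (SE 0.0724, limma adjusted p 3.06e-08). The main glucose transporter of most cultured cells, SLC2A1, read 619, 681, 586 and 655 FPKM against 247 to 287 FPKM (median 259.6), also with no overlap and with a difference of 1.27 (SE 0.0476, limma adjusted p 3.06e-08). The aldolase gene ALDOC rose by 1.23 and the enolase gene ENO2 by 1.20. Thus 4 of 21 genes differed by at least 1, and hypoxia or glycolysis lists hold 17 of the 98 genes that were higher by at least 1.

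TXNIP, which restrains glucose uptake and is a target of the glucose-responsive factor MondoA, was looked at after its values were seen. It read 102, 94.9, 115 and 125 FPKM in replicate 3 and 38.7 to 45.5 FPKM (median 43.0) in the others. Every replicate 3 library was above every other, by 1.33 (SE 0.0534, limma adjusted p 3.52e-08). ARRDC4, its paralogue under the same factor, rose by 0.55. These 2 genes make up the whole of the MondoA list, which was written with values known.

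RNA encoded by mitochondrial DNA was higher in replicate 3. All 13 messenger RNAs were called higher with a median of 0.72, though under quantile normalisation 6 were and the median was 0.22, with MT-CO3 (-0.23) and MT-ATP6 (-0.16) turning lower and MT-ND3 (-0.08) changing sign. That method gives genes of the same rank the same value in each library, so the most abundant ones, such as MT-CO1 and MT-CO2, differ by 0 there by construction. Their summed level was 40625 to 46406 FPKM (median 43321) in replicate 3 and 22290.0 to 29487 FPKM (median 27811) elsewhere, with MT-CO2, a subunit of cytochrome c oxidase, the most abundant. MT-RNR2 (ENSG00000210082), the large mitochondrial ribosomal RNA, read 4823, 4404, 5106 and 5377 FPKM against 1527 to 2010.2 FPKM (median 1737). Its replicate 3 values were apart from all others, by 1.52 (SE 0.0664, limma adjusted p 4.46e-08). The small ribosomal RNA, MT-RNR1, read 1087, 969, 933 and 876 FPKM against 363 to 639.5 FPKM (median 480.2) and was also apart, by 1.03 (SE 0.103, limma adjusted p 9.04e-06). MT-ND4, a subunit of complex I, rose by 0.89 and MT-CO3, the messenger with the smallest rise, by 0.40. Of 19 transfer RNAs, 10 were called higher and 0 lower, with a median of 0.72. Transfer RNA values rest on few reads: MT-TS1, with a difference of 1.98, had 7 to 10 reads in replicate 3 libraries and 0 to 5 in the others. Such genes can pass the filter on mean FPKM through replicate 3 alone, which favours rises among them. Reads on mitochondrial DNA made up 4.50% to 5.12% of all gene reads in replicate 3 and 2.46% to 3.18% elsewhere, and those on its ribosomal RNAs 0.751% to 0.888% against 0.282% to 0.36%.

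The nuclear genes for the same organelle did not follow. Of 39 nuclear respiratory chain genes, 2 were higher and 17 lower, beside 29.0% and 30.2% of all genes, with a median of -0.09. CYC1, a cytochrome c1 subunit of complex III, read 104, 104, 105 and 107 FPKM in replicate 3 and 119 to 132 FPKM (median 124) elsewhere, below all other libraries, and fell by 0.24. Mitochondrial ribosomal proteins were called lower in 22 of 31 and higher in 2, with a median of -0.16 beside -0.01 for all genes. MRPL20 fell by 0.40 and MRPL11 by 0.34. Both medians were negative under every scaling tried.

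DNA replication genes were lower in replicate 3. Of 40 tested, 37 were called lower, against 30.2% of all genes, and 0 higher. In 35 of them all replicate 3 libraries lay below all others, against 15.4% of all genes, and the median was -0.50, negative under every scaling. The summed level was 677 to 793 FPKM (median 743) in replicate 3 and 1023 to 1215 FPKM (median 1117) in the rest, a ratio of 0.661 between means. PCNA (ENSG00000132646), the sliding clamp of DNA polymerases and the most abundant of the list, read 124, 108, 118 and 103 FPKM against 188 to 215 FPKM (median 202). The replicate 3 libraries were all below the others, by -0.83 (SE 0.0415, limma adjusted p 7.20e-08). MCM6 (ENSG00000076003), a subunit of the replicative helicase, read 16.7 to 22.7 FPKM in replicate 3 against 33.7 to 41.0 FPKM (median 36.8). It too showed no overlap, with a difference of -0.83 (SE 0.0380, limma adjusted p 5.12e-08). MCM4, another subunit of that helicase, fell by 0.89, and CLSPN, the checkpoint adaptor claspin, by 0.84. Outside the list but among the 15 largest falls, UNG, which removes uracil from DNA, fell by 0.90, and FAM111B, a cell-cycle regulated protease, by 0.99.

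Promoter windows of the same RefSeq build are shown for 3 of these genes, which fell together. The same chromosome was passed over, so MCM4, with the largest fall in the list, is not shown. Capitals mark E2F words, TTTCGCGC, TTTGGCGC, TTTCCCGC and TTTGCCGC, searched on both strands, with overlapping matches printed as a longer run.
CLSPN, chr1:35769929-35770228, minus strand: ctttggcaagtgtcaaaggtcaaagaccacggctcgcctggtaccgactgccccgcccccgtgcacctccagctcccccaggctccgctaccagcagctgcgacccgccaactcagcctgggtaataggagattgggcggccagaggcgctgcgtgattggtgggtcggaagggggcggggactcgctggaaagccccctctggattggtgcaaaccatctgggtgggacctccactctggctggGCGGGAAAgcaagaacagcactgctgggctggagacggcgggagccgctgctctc
PCNA, chr20:5126573-5126872, minus strand: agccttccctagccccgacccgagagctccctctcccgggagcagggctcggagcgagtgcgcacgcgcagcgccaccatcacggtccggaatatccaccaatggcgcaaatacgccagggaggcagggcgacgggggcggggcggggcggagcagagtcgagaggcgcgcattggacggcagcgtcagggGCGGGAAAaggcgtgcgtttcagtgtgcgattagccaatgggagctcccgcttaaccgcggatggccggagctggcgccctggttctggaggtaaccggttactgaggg
MCM6, chr2:135876394-135876693, minus strand: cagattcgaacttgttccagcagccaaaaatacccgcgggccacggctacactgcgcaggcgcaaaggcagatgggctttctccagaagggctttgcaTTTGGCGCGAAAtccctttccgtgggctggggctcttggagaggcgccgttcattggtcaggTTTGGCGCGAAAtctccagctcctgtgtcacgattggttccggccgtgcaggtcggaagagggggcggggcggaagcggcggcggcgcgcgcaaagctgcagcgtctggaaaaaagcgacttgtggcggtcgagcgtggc
The CLSPN and PCNA windows each hold 1 match and the MCM6 window 4, which overlap in pairs. E2F words were present in 21 of 37 windows of tested replication genes (56.8%) and in 500 of 8805 windows of all tested genes (5.68%). What these words contribute to the lower level in replicate 3 was not tested.

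Mitosis genes did not fall with replication. Of 41 tested, 21 were called higher and 9 lower, with a median of 0.09 that turned to -0.05 under TPM. ANLN, a scaffold of the cleavage furrow, rose by 0.60, while FOXM1, a transcription factor of late cell cycle genes, fell by 0.35. Among 18 tested replication-dependent histone genes, of 55 listed, 9 were higher and 1 lower, with a median of 0.21. HIST1H2AC rose by 0.66, while HIST1H2AI had the lowest difference, at -0.46. Summed histone levels had a median of 184 FPKM in replicate 3 and 151 FPKM elsewhere, and did not overlap. Most histone messengers carry no poly(A) tail, and how the libraries took up such messengers was not tested.

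Parts of the protein synthesis machinery moved in different directions. Cytosolic ribosomal protein genes were called higher in 50 of 55 and lower in 0, with a median of 0.20, but the median came close to 0 under TPM (0.03, with 13 called higher) and under quantile normalisation (0.01, with 15 called higher). Their sum was 25197 to 26097 FPKM (median 25422) in replicate 3 and 21442 to 23877 FPKM (median 21988) in the others. In a fit of only the groups that received NH4Cl, 28 of them were called higher. RPS9 read 357, 379, 342 and 375 FPKM against 268 to 306 FPKM (median 286) and rose by 0.34, with no overlap. Ribosome biogenesis genes, which process ribosomal RNA in the nucleolus, were lower in 24 of 29 and higher in 1, with a median of -0.27 that was negative under every scaling. UTP20, part of the machine that processes the small subunit, read 2.87, 2.44, 2.14 and 1.80 FPKM against 3.96 to 5.28 FPKM (median 4.38) and fell by 0.75, and POLR1A, the large subunit of RNA polymerase I, fell by 0.66. NOLC1, a nucleolar phosphoprotein, fell by 0.47. Host genes of snoRNAs were higher in 14 of 16 and lower in 1, with a median of 0.30. SNHG1 rose by 0.75 and SNHG8 by 0.74, while SNHG25 fell by 0.51.

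Proteasome subunit genes were lower in 22 of 30 and higher in 0, with a median of -0.15. PSMD1, a scaffold of the regulatory cap, read 22.3, 22.5, 21.8 and 21.2 FPKM against 28.4 to 32.9 FPKM (median 30.5) and fell by 0.46, with no overlap. Spliceosome genes were lower in 21 of 36 and higher in 8, with a median of -0.22. The splicing factors SRSF1 and SRSF2 fell by 0.63 and 0.57, whereas CLK1, a kinase that phosphorylates such factors, rose by 0.60. Chromatin modifiers with long transcripts were lower in 17 of 34 and higher in 4, with a median of -0.14. NSD1, a histone methyltransferase, fell by 0.42, and ZNF292 rose by 0.58. Summed levels of these modifiers overlapped, at 238 to 254 FPKM in replicate 3 and 226 to 295 FPKM elsewhere. Their mean difference in NH4Cl plus TGF-β was only -0.01. Medians of these 3 groups were negative under every scaling tried. The aminoacyl-tRNA synthetases split, with 10 of 20 higher, 6 lower and a median of 0.04 that turned negative under TPM (-0.12) and under scaling without mitochondrial DNA (-0.03). AARS, which charges alanine and is an ATF4 target, rose by 0.47, and HARS, which charges histidine, fell by 0.29.

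Amino acid stress genes under ATF4 were higher in replicate 3. The test called 20 of 26 higher and 1 lower, with a median of 0.52 that was positive under every scaling. Their summed level was 1324 to 1420.0 FPKM (median 1372) in replicate 3 and 1003 to 1153 FPKM (median 1088) in the other libraries. DDIT3, the stress factor CHOP, read 21.4, 21.7, 23.5 and 22.8 FPKM against 5.49 to 10.7 FPKM (median 8.54). Replicate 3 did not overlap the others for this gene, which differed by 1.31 (SE 0.102, limma adjusted p 1.44e-06). SESN2, a sestrin that restrains mTORC1, rose by 1.01 and ATF3 by 0.85. SLC7A5, the most abundant of the list at a mean of 229 FPKM, had the lowest difference, at -0.35. Chaperones of the endoplasmic reticulum were higher in 14 of 24 and lower in 4, with a median of 0.28. HERPUD1, which acts in the removal of misfolded proteins from that organelle, read 28.1, 28.5, 28.3 and 27.6 FPKM against 9.16 to 12.5 FPKM (median 11.3) and rose by 1.28. HSPA5, the chaperone BiP, read 352, 335, 297 and 304 FPKM against 205 to 238 FPKM (median 215) and rose by 0.56. Neither gene overlapped between replicate 3 and the rest. Autophagy genes were higher in 21 of 33 and lower in 2 (median 0.15, or 0.02 under TPM), and ULK1, the kinase that starts the process, read 31.5, 33.5, 32.8 and 38.3 FPKM against 12.1 to 14.8 FPKM (median 14.2). Its ranges were apart and it rose by 1.24. Lysosome genes were lower in 18 of 37 and higher in 5, beside 30.2% and 29.0% of all genes, with a median of -0.08, which was negative under every scaling. NPC1, the cholesterol exporter of lysosomes, rose by 0.67 while CTSL, the protease cathepsin L, fell by 0.52. Cytosolic heat shock genes were lower in 10 of 19 and higher in 4 (median -0.07), and the higher ones included the near-identical HSPA1A at 0.58 and HSPA1B at 0.50.

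Among p53 target genes, 11 of 27 were higher and 3 lower, beside 29.0% and 30.2% of all genes, with a median of 0.07 that turned to -0.08 under TPM, and the stress-responsive GADD45A rose by 0.68 and the death-promoting BBC3 by 0.87, while TP53I3, an oxidoreductase, fell by 0.22. NRF2 target genes were mixed, with 8 of 22 higher and 9 lower, and their median of 0.04 became negative under TPM (-0.13), under scaling without mitochondrial DNA (-0.04) and under quantile normalisation (-0.08). HMOX1, the heme-degrading enzyme, rose by 0.78, and NQO1, a quinone reductase, fell by 0.31. Iron genes were mixed as well, with 4 of 11 higher and 3 lower (median -0.04). STEAP3, which reduces iron, fell by 0.44. The ferritin chain FTH1 rose by 0.68, and FTL by 0.17 with a sign that turned under TPM (-0.00180) and quantile normalisation (-0.31).

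Ligands of the EGF receptor were among the largest rises, and their list was written after values were seen. All 4 tested members were called higher, and their sum was 102 to 104 FPKM (median 103) in replicate 3 and 36.3 to 44.1 FPKM (median 39.0) in the other 8 libraries. AREG (ENSG00000109321), amphiregulin, read 50.4, 48.4, 46.6 and 42.8 FPKM against 12.7 to 16.2 FPKM (median 13.2). No library overlapped, and the difference was 1.68 (SE 0.0716, limma adjusted p 3.77e-08). EREG, epiregulin, which lies near AREG on the same chromosome, read 26.7, 24.2, 28.8 and 29.5 FPKM against 6.78 to 9.52 FPKM (median 8.06) and was also apart, by 1.61 (SE 0.0772, limma adjusted p 6.50e-08). HBEGF rose by 0.99 and TGFA by 0.61. Immediate early genes, which growth factors and stress induce within minutes, were higher in 24 of 34 and lower in 0, with a median of 0.32. Summed, they reached 1461 to 1722 FPKM (median 1567) in replicate 3 and 1092 to 1282 FPKM (median 1221) elsewhere. DUSP5, a phosphatase of ERK, read 36.9, 39.5, 50.5 and 53.2 FPKM against 14.4 to 22.8 FPKM (median 19.6) and rose by 1.20, and the AP-1 subunit FOSB rose by 1.14. FOS itself did not pass the test (0.30, limma adjusted p 0.104).

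Early targets of TGF-β were called higher in 15 of 22 and lower in 1, with a median of 0.36 that was positive under every scaling. Their sum was 541 to 699.9 FPKM (median 601) in replicate 3 and 367 to 459 FPKM (median 420.3) in the rest, with JUNB the most abundant. CDKN2B, a cyclin-dependent kinase inhibitor, read 23.9, 24.1, 31.9 and 32.9 FPKM against 12.6 to 18.6 FPKM (median 15.5), apart in every library, and rose by 0.81. ID1 read 46.6, 66.2, 38.0 and 54.9 FPKM against 17.1 to 45.4 FPKM (median 28.5), which overlap, and rose by 0.82 within groups. Ligands, receptors and SMADs of the pathway were mixed, with 5 of 17 higher and 3 lower, beside 29.0% and 30.2% of all genes, and a median of -0.03. The ligand gene TGFB1 rose by 0.71, the receptor TGFBR2 by 0.32 and the signal transducer SMAD3 by 0.37, while the receptor TGFBR1 fell by 0.22. SPTBN1, the SMAD3 adaptor that the paper studies, read 19.7, 21.1, 21.8 and 22.2 FPKM against 17.1 to 20.7 FPKM (median 19.6). Those ranges overlap, and its difference of 0.12 (SE 0.0459, limma adjusted p 0.0451) turned to -0.04 under TPM. CEACAM1, a cell adhesion receptor that the paper also studies, read 2.83, 2.70, 3.23 and 3.38 FPKM against 2.23 to 3.26 FPKM (median 2.82) and did not pass the test (difference 0.08, limma adjusted p 0.11).

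MYC, a driver of growth, read 286, 289, 341 and 354 FPKM against 192 to 252 FPKM (median 221), with no overlap, and rose by 0.49. Of 12 genes of its network, 6 were higher and 4 lower (median 0.15, or 0.00376 under TPM). MXD1, an antagonist of MYC, rose by 1.01 and MYCN fell by 0.54. Wnt target genes were lower in 13 of 24 and higher in 6, with a median of -0.15 that was negative under every scaling. LGR5, a marker of intestinal stem cells, read 0.745, 0.668, 0.448 and 0.617 FPKM against 1.21 to 1.81 FPKM (median 1.41) and fell by 0.60 with no overlap. YAP and TEAD target genes were higher in 11 of 23 and lower in 4, and their median of 0.10 turned to -0.02 under TPM. IGFBP3 rose by 0.86 and FJX1 fell by 0.50.

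Chemokine and NF-kB target genes were lower more often than higher. Of 28 tested, 17 were called lower and 6 higher, with a median of -0.29 that was negative under every scaling. This list holds 4 of the 8 genes that fell by at least 1. LTB (ENSG00000227507), lymphotoxin beta and the most abundant of the list, read 116, 115, 76.2 and 78.3 FPKM against 145 to 262 FPKM (median 203). Replicate 3 lay below all other libraries, and the difference was -1.06 (SE 0.0353, limma adjusted p 3.06e-08). CCL2 (ENSG00000108691), a monocyte attractant, read 6.46, 5.16, 4.74 and 2.97 FPKM against 8.33 to 17.1 FPKM (median 12.4), likewise apart, with a difference of -1.20 (SE 0.0895, limma adjusted p 1.11e-06). The neutrophil attractant CXCL2 fell by 1.03, and CCL20 read 61.9, 57.7, 33.1 and 25.6 FPKM against 52.8 to 142 FPKM (median 95.5). The CCL20 ranges overlap between groups, though it fell by 1.04 within them. IL11, a cytokine that TGF-β and hypoxia induce, went up by 1.18. Summed levels were 510.5 to 682 FPKM (median 600.3) in replicate 3 and 656 to 1096 FPKM (median 874) in the others, which overlap. Outside the list, TNFRSF11B, a decoy receptor for the ligand RANKL, fell by 1.09, and SERPINA6, a carrier of corticosteroids, by 1.04 on 24 to 41 reads a library in replicate 3. IGFL2-AS1 (1.60) was also among the 15 largest rises, and AC019069.1 (-0.92), PTGES (-0.89) and AL356234.3 (-0.88) among the 15 largest falls. AC046185.2, which the naming rule did not take and which was chosen after its values were seen, completes the 8 with a fall of 1.02.

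Interferon-stimulated genes were lower in 17 of 28 and higher in 4, with a median of -0.22. IFI6 read 9.99, 8.51, 9.20 and 8.37 FPKM against 14.0 to 24.5 FPKM (median 18.9) and fell by 0.98, and OAS3, a sensor of double-stranded RNA, fell by 0.88. Both were apart from the other libraries. ISG20, an exonuclease, rose by 1.16 and IRF7 by 0.74. MHC class II genes, listed after values were seen, had 3 of 5 tested members lower and 1 higher, among 13 listed. CD74 (ENSG00000019582), the invariant chain of MHC class II, read 12.4, 12.9, 13.1 and 10.6 FPKM against 22.7 to 34.6 FPKM (median 27.2). It did not overlap, with a difference of -1.10 (SE 0.0702, limma adjusted p 3.88e-07). HLA-DRA fell by 0.88.

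Epithelial structure genes were mostly higher on the deposited scale. Of 31 simple epithelial genes, 20 were called higher and 1 lower, with a median of 0.18, or 0.02 under TPM with 19 of 31 above 0. TFF3, a secreted trefoil peptide of the gut lining, read 139, 133, 166 and 174 FPKM against 38.0 to 64.7 FPKM (median 52.3), apart by 1.57 (SE 0.0598, limma adjusted p 3.06e-08). JUP, which links cadherins to keratin, rose by 0.66 and CLDN4, a tight junction protein, by 0.59. Basal and squamous keratins were higher in 10 of 15 and lower in 1 (median 0.56). KRT17 read 27.1, 29.8, 13.4 and 14.4 FPKM against 5.12 to 13.8 FPKM (median 9.04), which overlap across groups, and rose by 1.14 within groups. KRT16 rose by 1.10. Genes listed as mesenchymal were higher in 12 of 16 and lower in 3 (median 0.36). ITGA5 (ENSG00000161638), the fibronectin receptor subunit, read 31.0, 33.4, 34.6 and 37.9 FPKM against 7.45 to 10.6 FPKM (median 9.45). It was apart in all libraries, by 1.79 (SE 0.0759, limma adjusted p 3.67e-08). PLAUR, the urokinase receptor, rose by 1.19 and LAMB3, a laminin chain, by 0.95, while MMP7, the protease matrilysin, fell by 0.92 and had no overlap.

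Metallothionein and zinc transporter genes were higher in 4 of 8 and lower in 0, with 3 reaching a difference of 1. MT2A read 107, 106, 77.3 and 76.3 FPKM against 31.9 to 42.9 FPKM (median 36.2), with no overlap, and rose by 1.28; MT1X rose by 1.23 and MT1E by 1.11. Cholesterol synthesis genes were higher in 19 of 26 and lower in 4, with a median of 0.19, or 0.02 under TPM. INSIG1, a sterol sensor, read 81.3, 80.9, 129 and 153 FPKM against 44.6 to 83.5 FPKM (median 63.6), which overlap, and rose by 0.78 within groups. Fatty acid synthesis genes were higher in 7 of 17 and lower in 6, and their median of 0.06 turned negative under TPM (-0.10) and under scaling without mitochondrial DNA (-0.01). ACSS2, which makes acetyl-CoA from acetate, rose by 0.85 and ACACA, the rate-limiting carboxylase, fell by 0.37. Clock genes, listed after values were seen, had 11 of 14 higher and 1 lower (median 0.51). PER1, a repressor in the clock, read 13.8, 14.5, 17.3 and 20.3 FPKM against 4.72 to 8.18 FPKM (median 6.54) and rose by 1.22, with no overlap, and CLOCK fell by 0.17. Of 7 nuclear long noncoding RNAs, 4 were higher and 2 lower, and NEAT1, the core of paraspeckles, rose by 1.20, with every replicate 3 library above the other 8. Of 2 structured small RNA genes, 1 was higher and 0 lower, namely RN7SL2 at 0.68.

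**Figure D3:**
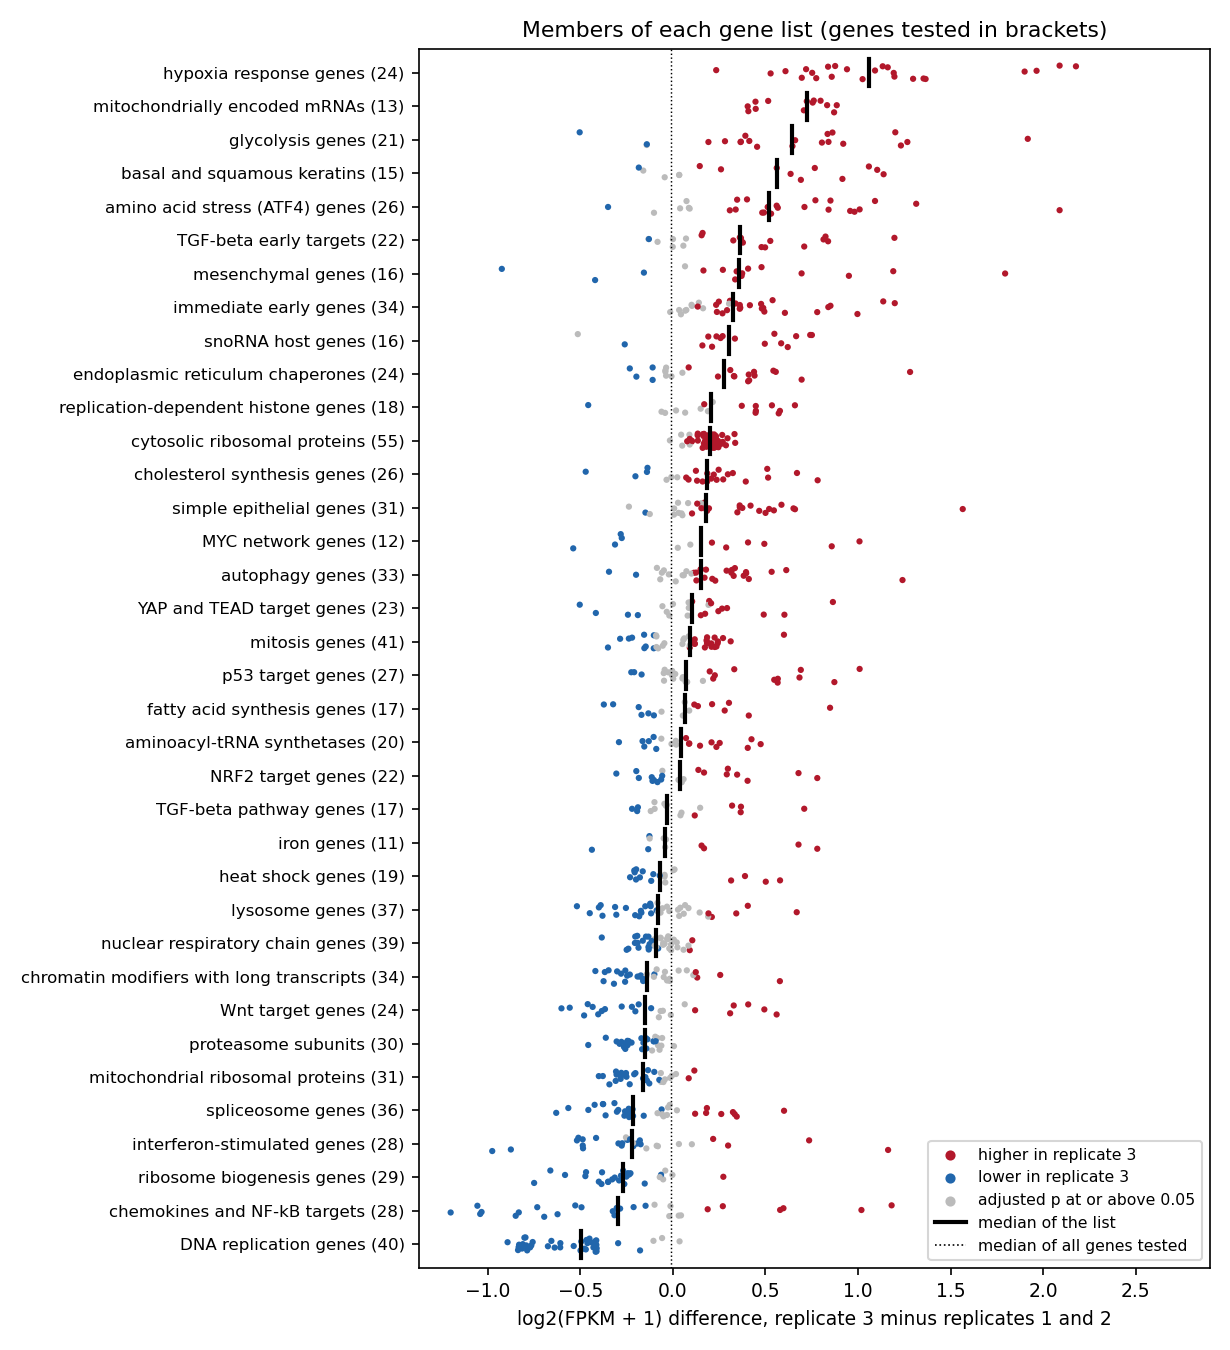
The replicate 3 difference in log2(FPKM + 1) (x axis) of every tested member of the 36 gene lists with at least 10 tested members (y axis, tested number in brackets), ordered by median, with called genes in red (higher) or blue (lower), list medians as bars and the median of all genes as a dotted line. Hypoxia response genes (median 1.06) lie farthest right and DNA replication genes (-0.50) farthest left; medians of mitosis, p53, NRF2, YAP and TEAD, fatty acid and aminoacyl-tRNA lists turn negative under TPM.

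**Figure D4:**
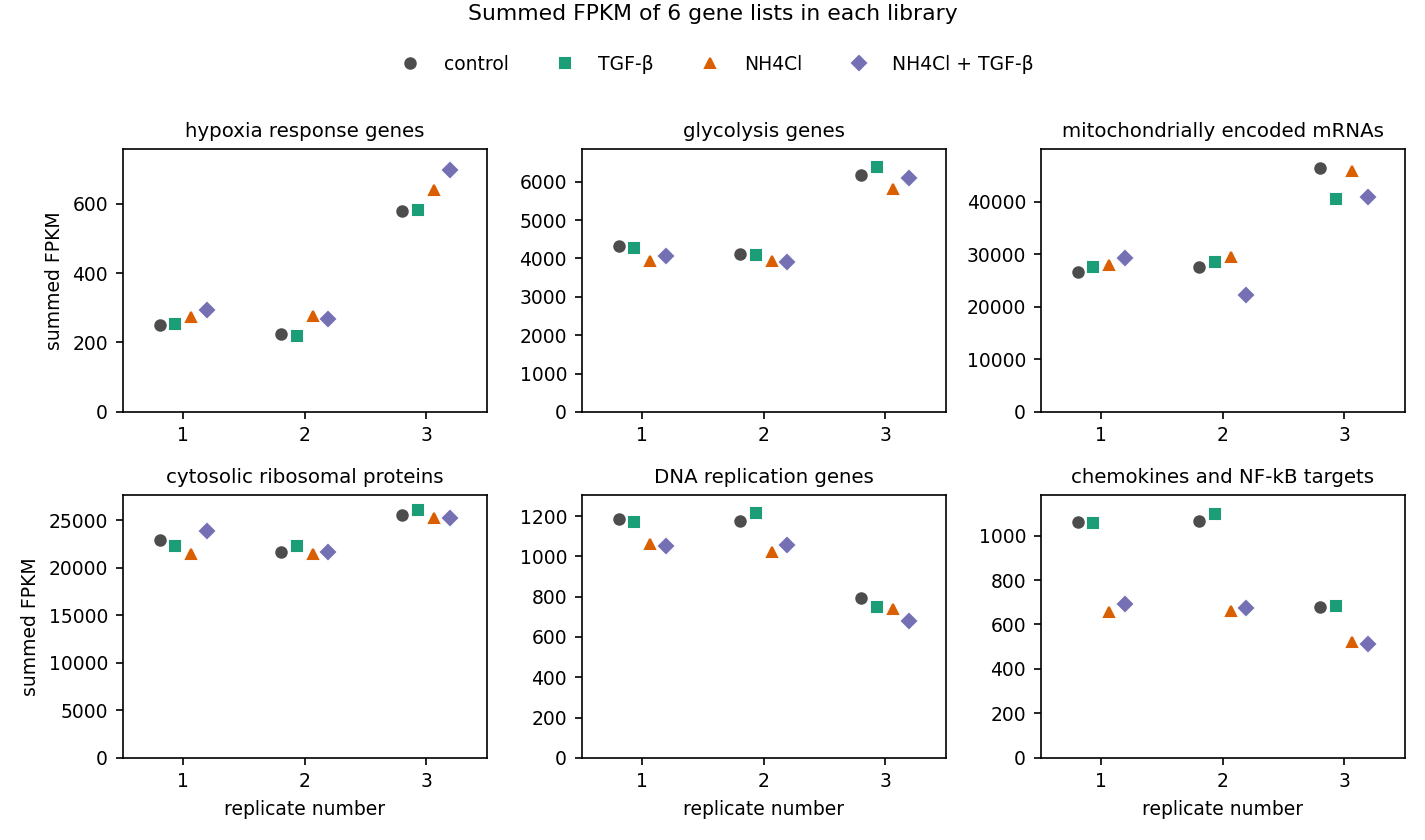
Summed FPKM (y axis, from 0) of 6 gene lists in each of the 12 libraries, by replicate number (x axis), with a symbol and colour for each treatment group. For hypoxia, glycolysis, mitochondrially encoded and ribosomal protein genes the 4 sums of replicate 3 lie above the other 8, and for DNA replication genes below them; chemokine and NF-kB sums overlap. Ribosomal protein calls fall from 50 to 13 under TPM.

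Markers of other cell types were followed too. Fibroblast, endothelial, leukocyte, erythroid, hepatocyte and neural lists had 8 tested members between them, of which 4 were higher and 2 lower. Fibroblast genes summed to 9.73 to 11.3 FPKM (median 10.9) in replicate 3 and 8.11 to 10.2 FPKM (median 9.25) elsewhere, with LUM the most abundant at 7.43 to 8.76 against 6.56 to 8.54 FPKM. The collagen gene COL1A1 read 1.99 to 2.62 FPKM in replicate 3 against 1.14 to 1.70 FPKM and rose, but COL1A2 read at most 0.0185 and COL3A1 at most 0.0270 FPKM in any library. Endothelial genes summed to 5.54 to 9.73 FPKM (median 6.91) against 2.35 to 4.73 FPKM (median 3.51), most of it VWF at 3.90 to 6.44 FPKM against 1.27 to 2.75. CLDN5 rose by 0.47, and PECAM1, the defining marker, read 0.0443 to 0.0911 FPKM against 0.00750 to 0.0417 FPKM, too low to be tested. Leukocyte genes summed to 1.52 to 2.76 FPKM (median 2.38) against 2.25 to 3.78 FPKM (median 3.10), with LYZ the most abundant (fell by 0.62). CD3D was at 0 to 0.127 FPKM and PTPRC has no entry in the table. Erythroid genes summed to 1.64 to 2.68 FPKM (median 2.43) against 1.49 to 3.70 FPKM (median 2.34), mostly HBA1, with HBB at or under 0.159 FPKM. Hepatocyte genes summed to 24.6 to 35.0 FPKM (median 29.0) against 36.9 to 43.3 FPKM (median 40.3), nearly all SERPINA1, which also colon cancer cells express and which fell by 0.44, while APOA1 was at or under 0.0910 FPKM. Neural genes summed to 33.4 to 36.4 FPKM (median 33.8) against 26.3 to 29.3 FPKM (median 28.3), nearly all SYT1 (0.28), with GFAP at or under 0.0144 FPKM. No listed gene with a value was at 0 in all 12 libraries.

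Replicates 1 and 2 were compared in the same way, to set replicate 3 beside them. With limma 0 of 12341 genes (0%) passed the adjusted threshold, and 565 had an unadjusted p under 0.05. The smallest adjusted p was 0.277. All 24 tested hypoxia genes were slightly lower in replicate 2 than in replicate 1 (median -0.10), though none was called. NDRG1 and DDIT4 differed by -0.34 and -0.40 between replicates 2 and 1 (limma adjusted p 0.424 and 0.781), far less than their replicate 3 differences of 2.18 and 2.09. All 55 ribosomal protein genes were lower in replicate 2 than in replicate 1 (median -0.05), and 30 of 34 chromatin modifiers were higher (median 0.10). FOS differed by -0.51 and DUSP1 by -0.34 (limma adjusted p 0.277 each). Measured against counting error alone, the chi-square per gene was 25.4 to 36.3 between replicate 3 and either other replicate and 1.76 to 2.29 between replicates 1 and 2, or 5.02 in NH4Cl plus TGF-β.

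Whether the NH4Cl difference itself depended on the replicate was tested as an interaction. Each group has 1 library in replicate 3, so in this fit replicates 1 and 2 supply all of the spread. Of 12341 genes, 1 passed (0.00810%), and 1369 had an unadjusted p under 0.05. With 1 term for NH4Cl in replicate 3, so that its libraries add to the spread, 0 passed and 1226 had an unadjusted p under 0.05. The gene that passed was TNFRSF10A-AS1, an antisense transcript, which read 5.40, 4.43, 5.65 and 1.29 FPKM in replicate 3 and 3.52 to 5.48 FPKM (median 4.25) in the others. Its NH4Cl difference was -0.59 in replicate 3 and 0.34 in replicates 1 and 2, which differ by -0.94 (SE 0.0737, limma adjusted p 0.0310). The same difference did not pass with 1 term (limma adjusted p 0.384). In that fit, without NH4Cl plus TGF-β replicate 3, at 1.29 FPKM, the difference was -0.27 (limma adjusted p 0.443), and without NH4Cl replicate 3 it was -1.60 (limma adjusted p 0.000788). It also failed to pass in that fit without replicate 3 of Control or of TGF-β alone (0.479 and 0.747), and in the first fit without replicate 1 or 2 of Control, TGF-β alone or NH4Cl alone (limma adjusted p 0.0616 to 0.208). With replicate number as a block the difference was the same and did not pass (limma adjusted p 0.0615). CXCL8, a neutrophil attractant, read 45.0, 40.9, 43.0 and 36.1 FPKM in replicate 3 and 30.9 to 60.6 FPKM (median 45.8) in the others. Its NH4Cl difference was -0.12 in replicate 3 and -0.84 in the others, which did not pass (limma adjusted p 0.106). That call changed in 4 alternatives, with differences of 0.68 to 0.77 beside 0.73: it passed under TPM (limma adjusted p 0.0327), under scaling without mitochondrial DNA (0.0381), and without replicate 1 (0.0474) or replicate 2 (0.0416) of NH4Cl plus TGF-β. For IFI6 it was -0.06 against -0.60 and for MYCL -0.33 against -0.96, and neither passed (limma adjusted p 0.106 and 0.133).

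**Figure D5:**
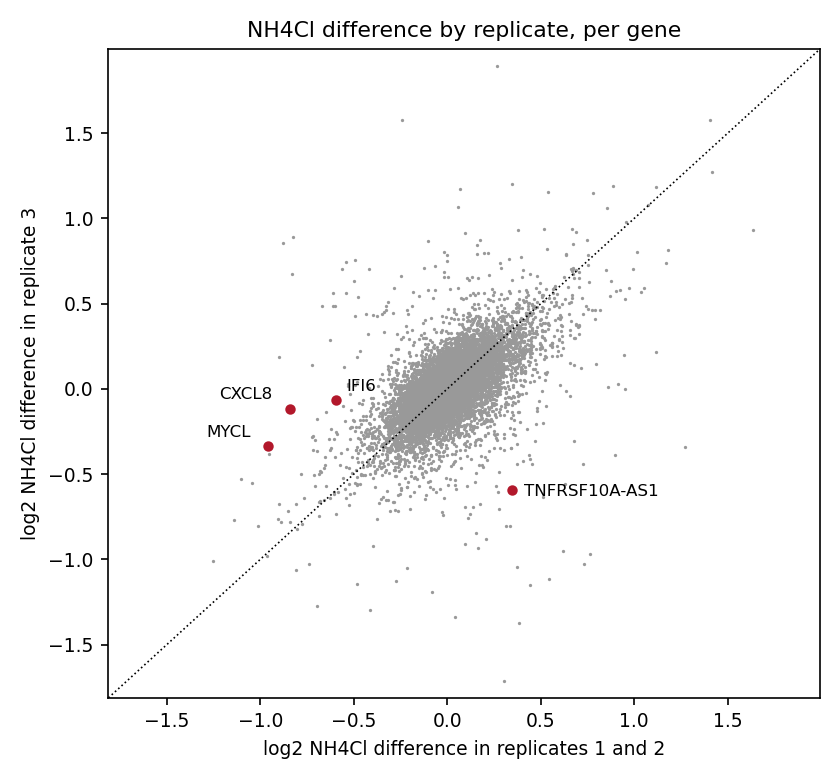
The NH4Cl difference in log2(FPKM + 1) of each tested gene in replicate 3 (y axis) against that in replicates 1 and 2 (x axis), with the line of equality dotted and 4 genes marked in red. TNFRSF10A-AS1 lies at -0.59 in replicate 3 and 0.34 in the others, and CXCL8, IFI6 and MYCL lie nearer to 0 in replicate 3.

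Features of the genes and libraries were described beside the difference. Among 10702 protein-coding genes of the nuclear genome, the Spearman correlation of the difference across genes was -0.0294 with exon length and -0.0467 with exon number. With mean FPKM it was -0.0288, and with GC content 0.118 over the 10697 genes that have a GC value. Genes are not independent replicates. In the fifth of genes with the highest GC content the median difference was 0.06, with 890 higher and 508 lower, and in the other 4 groups it was -0.05 to -0.02. By annotated class, 59 microRNA genes had a median of 0.39 (18 higher, 4 lower) and 43 snoRNA genes 0.31 (9 higher, 1 lower). The filter took the mean over all libraries, replicate 3 included. Short genes of few reads can therefore pass it through replicate 3 alone, which favours rises, so these 2 medians are not read as a trait of the class. Medians were 0.06 for 363 lincRNA genes (106 higher, 58 lower) and -0.02 for 10715 protein-coding genes (3132 higher, 3505 lower). Of all genes tested, 29.0% were higher and 30.2% lower. MIR503, a microRNA gene with a difference of 1.61, rests on 1 to 7 reads a library in replicate 3 and 0 to 1 elsewhere. In replicate 3 the 100 most abundant genes took 22.7% to 23.5% of reads against 18.9% to 20.1%, protein-coding genes 97.1% to 97.2% against 97.7% to 97.8%, and FPKM summed to 301728 to 305984 against 262958 to 278920. The library total implied by FPKM divided by the reads assigned to genes came to 0.964 to 0.969 for replicate 3 and 1.02 to 1.03 for the rest. These measures did not overlap between replicate 3 and the rest, and apart from the FPKM sum, which TPM scaling sets equal, their part in the differences of single genes was not tested.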

How the data were processed

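RNA sequencing of HCT116 cells in 4 groups of 3 libraries was used, with groups and replicate numbers as labelled. The authors deposited FPKM for 25733 genes in each library, made per the labels with Trimmomatic 0.36, STAR 2.5.2b and featureCounts of Subread 1.5.2 on GRCh38; the paper's methods name HTSeq and DESeq2 instead. All columns were used, and all 25733 identifiers matched GENCODE release 29. FPKM times exon length came to whole reads, within 0.05 reads, in 100% of values, and reads per gene were taken from it.

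Genes with a mean of at least 1 FPKM, 12341 in all, were tested as log2(FPKM + 1), so the pseudocount was 1. The two-sided limma model, version 3.58.1 under R 4.3.3 with a variance trend on level, had 4 group means and a replicate 3 term. Replicates 1 and 2 were compared in a fit with replicate number as a factor, and the NH4Cl difference by replicate with 8 cell means, where each replicate 3 cell is 1 library and the error comes from replicates 1 and 2. A fit with 1 term for NH4Cl in replicate 3, to which all libraries add error, was used where a replicate 3 library was left out and, after values were seen, on all libraries. The Benjamini-Hochberg method adjusted p over all genes tested, with a threshold of 0.05, and the code was tested on simulated data. Counts of libraries that do not overlap ignore treatment group. The rest ran in Python 3.11.15 (numpy 2.4.6, pandas 2.3.3, and matplotlib 3.10.9 for plots).

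Libraries that share a replicate number deviated from their group means alike in all 18 pairs, by correlation across genes (0.349 to 0.431 for replicate 1, 0.446 to 0.533 for replicate 2, 0.702 to 0.774 for replicate 3), and a replicate block was run as an alternative. Deviations sum to 0 in each group, so the shift of replicate 3 by itself makes replicates 1 and 2 correlate; after the replicate 3 term the correlation within a number was -0.0972. Other alternatives were the pseudocount, the filter, 4 scalings, no trend, each replicate number alone, groups with or without NH4Cl and each library left out.

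Genes were named from the 15 largest rises and 15 largest falls past the threshold with replicate 3 outside the range of the others, the 4 largest differences in each of 45 gene lists, genes of mitochondrial DNA, genes the paper names, and the 10 smallest p-values in each of the other comparisons. Not all genes that this rule took are described. NQO1, TP53I3, TGFBR1, HIST1H2AI and SLC7A5, the lowest of their lists, were added after values were seen. The members and lists were chosen with earlier results of these data known, and 4 further lists (MHC class II, EGF receptor ligands, clock, MondoA) after values were seen. Lists are described by counts and medians, with no test over members.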

Additional observations from a re-analysis of the deposited data

Results flagged for a closer look

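TNFRSF10A-AS1 is taken up because its NH4Cl difference in replicate 3 and that in replicates 1 and 2 passed a test of the difference itself with 8 cell means. The difference of differences in log2(FPKM + 1) was -0.94 (limma adjusted p 0.0310). In that fit each group has 1 library in replicate 3, and replicates 1 and 2 supply all of the spread. With 1 term for NH4Cl in replicate 3, to whose spread those libraries add, it was the same and did not pass (limma adjusted p 0.384). With replicate number as a block it did not pass either (limma adjusted p 0.0615). Without NH4Cl plus TGF-β replicate 3, which read 1.29 FPKM from 14 reads, it was -0.27, and without NH4Cl replicate 3 it was -1.60. The gene was counted with 14 to 52 reads a library in replicate 3 and 34 to 57 in the others, and it is antisense to another gene, so strand could matter to its value, which was not tested.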

How the results depend on the processing

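The count of genes that differed in replicate 3 was 6522 to 7309 with 1 library left out at a time, that of higher genes 3204 to 3584, that of lower genes 3296 to 3725 and that of differences of at least 1 was 103 to 129. Under TPM scaling 1838 genes were higher and 6536 lower, as that scaling put the median of all genes at -0.15. A mean FPKM of at least 5 left 2366 higher and 68 with a difference of at least 1, as fewer genes were tested. A pseudocount of 0.1 gave 235 with a difference of at least 1. A fit of only the groups that received NH4Cl gave 2360 lower genes. One of only the groups without NH4Cl, with as many libraries, gave 3018. Asking for a difference of at least 1 as well left 106. Calls numbered 5742 against replicate 1 alone and 6180 against replicate 2 alone.

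With replicate number as a block, 7255 genes differed, and the NH4Cl interaction went from 1 gene to 0 with limma. The block moved higher calls of ribosomal proteins from 50 to 51 and of immediate early genes from 24 to 25, and lost 0 of 200 named genes. As a random effect, replicate number gave 8182 calls. The NH4Cl interaction also gave 2 genes with a pseudocount of 0.1, 71 with no filter on level, 0 at a mean of at least 5, 2 under TPM, 2 under scaling without mitochondrial DNA, 0 with 1 term, and 0 to 3 with 1 library left out. For TNFRSF10A-AS1 it was -1.60 without NH4Cl replicate 3, over 1.5 times its value, and for CXCL8 it passed in 4 alternatives. The cause was not tested. Between replicates 1 and 2 the count was 0 to 2 with 1 library left out: it was 1 without TGF-β replicate 1 and 2 without NH4Cl replicate 2.

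The differences of NDRG1, DDIT4, MT-TS1, CA9, SLC2A3, CCL2, CD74, TNFRSF11B, LTB and SERPINA6 kept direction and call in every alternative that gave a value. Of 200 named genes that were called, 2 changed sign under TPM and 4 under quantile normalisation, and 0 under the other alternatives. Calls were lost in 14 with only the groups that received NH4Cl, 8 under quantile normalisation, 8 against replicate 1 alone, 7 with only the groups without NH4Cl, 7 without NH4Cl plus TGF-β replicate 3, and 0 to 6 otherwise. Chosen after seeing the data, leaving out genes of mitochondrial DNA gave 7289 calls, and leaving out NH4Cl and NH4Cl plus TGF-β replicate 2, since the latter stands apart from its replicate 1, gave 6762. Depth limits genes of few reads, such as mitochondrial transfer RNAs.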
